A study of Mus musculus with 2 samples.

Results

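Chil1-high stromal cells, taken from the cornea and limbus of mice, were chosen by 2 measured values: at least 1500 counts per 1000000 in the cell (CPM) came from Chil1, and fewer than 5000 came from the corneal keratin gene Krt12. A total of 98 of 7668 cell barcodes met this rule, 87 of 5155 in the Beclin1 +/- library and 11 of 2513 in the wild-type (WT) library. The study profiled single cells by the 10x Genomics droplet method, which counts transcripts by their unique molecular identifiers (UMIs), and compared a mouse heterozygous for Becn1, the gene of the autophagy protein beclin 1, with a WT littermate. Both mice were C57BL/6 females of 28 days. Lens, retina, iris and the trabecular network had been taken out and most conjunctiva cut away before digestion with collagenase A and trypsin. The altered stretch of the Becn1 allele is not given in the sources used here. Each genotype was 1 animal and 1 library, so genotype, animal and preparation cannot be told apart, no test of a genotype difference exists, and every 95% interval given here covers counting error only.

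Chil1 encodes a secreted glycoprotein of the chitinase family that binds chitin-like sugars but does not cleave them. It is known from cartilage, from macrophages and from the human trabecular meshwork, and its level is known to go up where tissue is inflamed or remodelled. The stroma of the cornea is built by keratocytes, which deposit collagen fibrils held in register by small leucine-rich proteoglycans such as keratocan (Kera) and lumican. Fibroblasts of the limbus and sclera make a coarser matrix with less keratocan. Mgp, S100a4, Timp1 and Saa3 are the other markers given for the Chil1-high cells: a matrix protein that inhibits calcification, a calcium-binding protein of motile fibroblasts, an inhibitor of matrix metalloproteinases and an acute phase protein.

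The promoters of 4 genes on which the results turn are shown from RefSeq on GRCm38.p6, each from 250 bases before to 50 bases after the annotated start. Chil1 (chr1:134181906-134182205, plus strand) chose the cells, Myoc (chr1:162638900-162639199, plus strand) had high counts in WT cells, and Saa3 (chr7:46715627-46715926, minus strand) and Timp1 (chrX:20869916-20870215, plus strand) had higher counts in heterozygote cells. Capitals mark matches, on either strand, to any of 4 motifs. The TATA box was searched as TATAAA. The site of the AP-1 factors was searched as TGANTCA. The site of the C/EBP factors was searched as TTNNGNAA. The site of the STAT factors was searched as TTCNNNGAA. Overlapping matches were allowed.
Chil1: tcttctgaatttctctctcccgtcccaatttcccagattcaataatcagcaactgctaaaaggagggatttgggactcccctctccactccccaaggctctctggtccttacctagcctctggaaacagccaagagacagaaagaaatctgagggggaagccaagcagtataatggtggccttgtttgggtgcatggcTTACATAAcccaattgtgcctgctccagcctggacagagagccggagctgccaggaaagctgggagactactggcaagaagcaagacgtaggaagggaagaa
Myoc: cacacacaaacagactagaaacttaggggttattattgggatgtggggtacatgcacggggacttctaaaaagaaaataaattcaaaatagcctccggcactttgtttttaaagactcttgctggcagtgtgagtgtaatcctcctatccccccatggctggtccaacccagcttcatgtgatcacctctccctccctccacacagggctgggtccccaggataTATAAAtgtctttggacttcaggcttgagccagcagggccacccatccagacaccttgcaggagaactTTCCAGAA
Saa3: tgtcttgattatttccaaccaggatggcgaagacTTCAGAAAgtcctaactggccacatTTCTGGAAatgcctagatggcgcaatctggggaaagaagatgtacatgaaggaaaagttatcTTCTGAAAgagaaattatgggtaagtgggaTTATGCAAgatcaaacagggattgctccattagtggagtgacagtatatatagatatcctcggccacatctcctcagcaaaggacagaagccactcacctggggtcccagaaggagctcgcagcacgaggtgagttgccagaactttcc
Timp1: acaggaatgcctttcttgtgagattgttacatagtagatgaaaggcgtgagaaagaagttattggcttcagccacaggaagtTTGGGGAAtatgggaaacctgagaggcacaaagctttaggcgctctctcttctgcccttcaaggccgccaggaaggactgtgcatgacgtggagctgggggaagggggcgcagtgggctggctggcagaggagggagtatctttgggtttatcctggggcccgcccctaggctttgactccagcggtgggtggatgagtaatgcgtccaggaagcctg
The C/EBP letters occurred 4 times in the Saa3 window and 1 time each in the Chil1, Myoc and Timp1 windows. They occurred at least 1 time in 40.7% of 32851 mouse promoters of the same length and at least 4 times in 0.852%. The TATA letters were found in the Myoc window and in 13.6% of all promoters. The AP-1 letters were in none of the 4 windows and in 7.81% of promoters, and the STAT letters in none of the 4 and in 8.30%. These are letter matches only.

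Chil1 chose the cells, so its level describes the rule. Per cell it ran from 1558 CPM over a median of 5415 to 66435 CPM in the heterozygote library, and from 1743 over a median of 3071 to 25609 CPM in the WT library. The shallowest count behind a chosen cell was 10 UMIs in the heterozygote and 16 UMIs in the WT library. Just inside the limit, 10 heterozygote and 3 WT cells had less than 2000 CPM. Just outside it, 14 heterozygote and 3 WT stromal cells had 1000 CPM or more, and the highest had 1479 and 1226 CPM. Stromal cells outside the rule mostly lacked the transcript. After each cell was thinned to 5000 UMIs, Chil1 was counted in 9.13% of other stromal cells of the heterozygote and 7.17% of those of the WT library (12.4% and 10.6% without thinning). In cells with 5000 CPM Krt12 or more, taken as an epithelial background, the shares were 2.20% and 0.479% (4.64% and 2.04% without thinning). Their median depths were 14096.5 and 19589 UMIs. They include 164 heterozygote and 38 WT cells called as doublets, so these shares do not measure free RNA alone.

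All 98 cells also passed a limit for stromal cells that the rule did not use. Col1a1, Col1a2, Dcn and Lum together made up at least 7979 CPM in each heterozygote and at least 15983 CPM in each WT cell, with medians of 50308 and 49182 CPM. Other stromal cells, with at least 5000 CPM of these genes, less than 1500 CPM Chil1 and less than 5000 CPM Krt12, had medians of 74319 and 78431 CPM. Markers of blood vessels, melanocytes, mast cells, T cells and lens or retina had a median of 0 in both libraries. Mast cell markers were at 0 in every Chil1-high cell. Ptprc, which marks white blood cells, had no UMI in any of them. It had none even in 1 WT cell with 43991 CPM of summed macrophage and dendritic cell markers. Its absence therefore cannot show that no white blood cell is among them. The highest heterozygote cell had 2277 CPM of those summed markers. Krt12, which the rule limits but does not exclude, was counted in every Chil1-high cell, at a median of 1049 CPM in the heterozygote and 726 CPM in the WT library. Other stromal cells had medians of 962 and 642 CPM, and the part of free epithelial RNA in these values was not tested. The label as stromal cells fits the collagen and proteoglycan counts, but the given markers S100a4, Timp1 and Saa3 were absent from many of the cells.

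Chil1-high cells made up a larger share of the stroma in the heterozygote library. They were 87 of 1357 stromal cells (6.41%, exact binomial interval 5.17 to 7.85) in the heterozygote and 11 of 569 (1.93%, 0.969 to 3.43) in the WT library. The lowest barcode held 5430 UMIs in the heterozygote and 8089 UMIs in the WT library, so the libraries were also compared above 8089 UMIs in both. There the shares were 42 of 714 (5.88%, 4.27 to 7.87) and 11 of 569. At 10000 CPM Chil1 or more the counts over all barcodes were 27 of 1357 heterozygote (1.99%) and 2 of 569 WT stromal cells (0.351%, 0.0426 to 1.26). At the common depth the heterozygote count was 9 of 714 (1.26%, 0.578 to 2.38), and its interval overlaps that of the WT library. Of the Chil1-high cells, 4 heterozygote and 0 WT cells were called as doublets, and none shared its barcode with a cell of the other library.

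**Figure D1:**
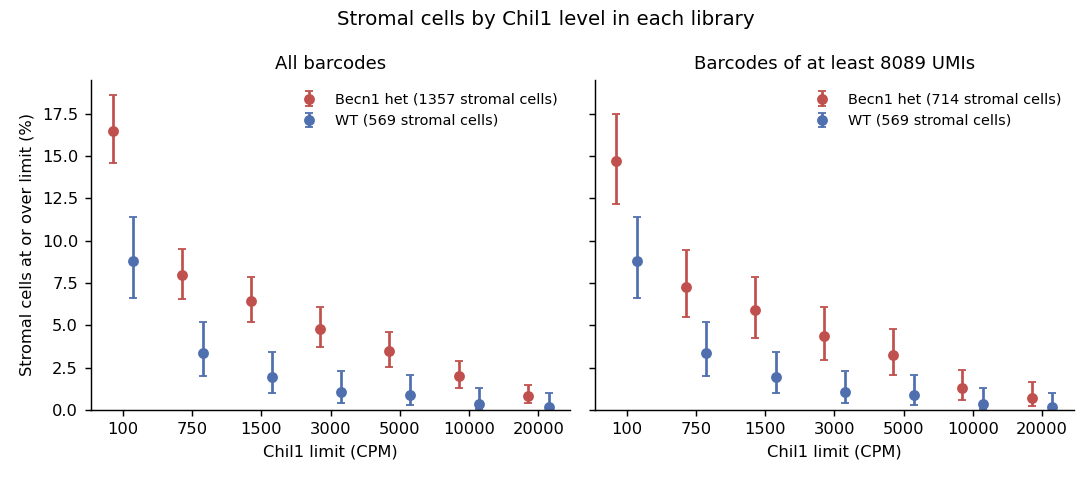
Share of stromal cells at or over each Chil1 limit (x axis, CPM) in the Becn1 heterozygote (red, left of each pair) and WT library (blue), with exact binomial 95% intervals, for all barcodes and for barcodes of at least 8089 UMIs. At 1500 CPM, the rule used here, the shares were 6.41% and 1.93% over all barcodes and 5.88% and 1.93% at the common depth.

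Summed over cells, the Chil1-high cells held 740675 UMIs in the heterozygote and 127431 UMIs in the WT library (medians of 7788 and 9969 UMIs and of 2376 and 2784 genes per cell), so WT values rest on few cells. Each library's sum was set against that of its other stromal cells (1270 heterozygote and 558 WT cells). Of 4271 genes with a mean of 20 CPM in both libraries, 330 (7.73%) were at least 1.5 times higher and 164 (3.84%) at least 1.5 times lower in both. With trimmed-mean scaling (TMM) of the sums these counts were 201 and 262, so the balance of higher and lower genes depends on the scaling, which moves every log2 ratio by -0.15 in the heterozygote and -0.25 in the WT library. The median log2 ratio of all genes was 0.09 in the heterozygote and 0.05 in the WT library.

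Of the given markers, Mgp (chr6:136872435-136875823, minus strand, mm10, as are all gene positions here) was higher in Chil1-high cells of both libraries and counted in every one of them, and Timp1, S100a4 and Saa3 were unevenly spread. Mgp had 12179 CPM in Chil1-high and 5241 CPM in other stromal cells of the heterozygote library, a log2 ratio of 1.22 (1.18 to 1.25), and 12218 and 4114 CPM in the WT library, a ratio of 1.57. Per cell it spanned 1089 to 35459 CPM in heterozygote and 1066 to 31297 CPM in WT cells, so the libraries overlapped over nearly the whole range. Timp1 (chrX:20870166-20874735, plus strand) had 346 against 81.4 CPM in the heterozygote library (2.09, 1.88 to 2.29) and 157 against 68.9 CPM in the WT library (1.22, 0.46 to 1.83). S100a4 (chr3:90603771-90606045, plus strand) had 277 against 110 CPM (1.34, 1.11 to 1.55) and 126 against 71.5 CPM (0.86, -0.01 to 1.53), the last interval reaching past 0. Saa3 (chr7:46711998-46715700, minus strand) had 189 against 11.6 CPM in the heterozygote library, where 13 of 87 cells held it, and no UMI in Chil1-high or other stromal cells of the WT library.

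Much of this profile was shared with stromal cells of low keratocan. Set against the 293 heterozygote and 138 WT stromal cells with less than 500 CPM Kera, S100a4 had 277 CPM in Chil1-high and 278 CPM in Kera-low cells of the heterozygote library (126 and 88.1 CPM in WT), and Timp1 had 157 CPM in Chil1-high and 195 CPM in Kera-low cells of the WT library (346 and 234 CPM in the heterozygote). Mgp kept a difference, with 12179 against 5944 CPM and 12218 against 5167 CPM. The count of genes higher in both libraries was 134 against Kera-low cells.

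Marker lists of neighbouring cell types were read the same way. Of 11 measured keratocyte markers 0 were at least 1.5 times higher and 4 lower in both libraries. Of 12 limbal or scleral fibroblast markers 6 were higher and 2 lower. Of 6 measured trabecular meshwork or ciliary markers 4 were higher and 1, Angptl7, was lower. The 4 higher genes include Chil1, high by the rule, and Mgp, a given marker. Of the 12 genes of that list 2 had no UMI in heterozygote and 3 in WT Chil1-high cells. Of 10 chondrocyte or bone markers 2 were measured, Chad and Comp, and both were higher (medians 5.26 and 4.01), while 4 had no UMI in heterozygote and 6 in WT cells, Col10a1, Ibsp, Bglap and Matn1 in both. Of 10 smooth muscle or pericyte markers 2 were measured, Acta2 and Tagln, and both were higher (medians 2.61 and 3.33). That list summed to 111 against 24.2 CPM in the heterozygote and 330 against 33.6 CPM in the WT library, with 6 and 5 genes at 0, Myh11, Cnn1 and Des among them in both. Of 10 Schwann cell markers 5 had none in either. No other cell type is named for the cells here.

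The genes with the highest ratios in both libraries, apart from Chil1, were led by Chad, Myoc and Clu. Chad, which encodes chondroadherin, a leucine-rich protein of cartilage and tendon, had 279 CPM in Chil1-high and 5.21 CPM in other stromal cells of the heterozygote library (log2 ratio 5.74, 5.32 to 6.19), and 589 and 15.5 CPM in the WT library (5.25, 4.80 to 5.68). In all, 18 of 87 heterozygote and 6 of 11 WT cells carried it, with highest cells of 6580 and 3544 CPM. Myoc, the gene of the secreted protein myocilin that is linked to glaucoma in humans, had 225 against 13.5 CPM (4.06, 3.74 to 4.39) and 1256 against 26.2 CPM (5.58, 5.26 to 5.90). It was found in 22 heterozygote and 6 WT cells, and a single WT cell held 53.1% of the WT UMIs. Clu, a secreted chaperone, behaved differently in being carried by most cells, 83 of 87 and 11 of 11. It had 2172 against 180 CPM and 1954 against 155 CPM (3.66, 3.46 to 3.86).

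Several of the other genes with the highest ratios encode secreted or matrix proteins. The protease inhibitor Serpine2 had log2 ratios of 3.56 in the heterozygote and 4.26 in the WT library, the microfibril-associated Ltbp2 had 3.21 and 3.75, and the cell adhesion protein gene Emb had 3.05 and 4.16. Comp, the cartilage oligomeric matrix protein, had 4.79 and 2.77, and Col8a1, a short-chain collagen, had 2.40 and 3.64. Also among the highest were Lbp (2.85 and 2.40), Fndc1 (2.35 and 3.19), the iron carrier gene Trf (2.31 and 2.36), the retinoic acid-degrading Cyp26b1 (2.21 and 2.60), the smooth muscle actin Acta2 (2.19 and 3.51) and Cilp2 (2.51 and 2.03). Against Kera-low cells alone 5 of these genes had ratios of 4.25 and 3.49 for Chad, 2.31 and 4.04 for Myoc, 1.92 and 1.78 for Clu, 0.45 and 1.56 for Col8a1 and 0.39 and 1.57 for Acta2. Over all alternative limits, scalings and stromal sets, the lowest heterozygote ratios were 0.38 for Fndc1, 0.34 for Cyp26b1 and 0.39 for Cilp2. Serpine2, Ltbp2, Emb, Comp, Lbp and Trf stayed at 0.89 or more.

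Most genes with the lowest ratios had their highest level in Kera-high stromal cells. Kera had 485 CPM in Chil1-high and 3418 CPM in other stromal cells of the heterozygote library (-2.82, -2.97 to -2.67) and 377 and 3851 CPM in the WT library (-3.34, -3.79 to -2.95). It was counted in 37 heterozygote cells and in a single WT cell. Angptl7, a secreted factor abundant in keratocytes, had 459 against 3275 CPM (-2.83) and 267 against 3155 CPM (-3.54). Fgf21, a stress-induced hormone gene, had 32.4 against 329 CPM and 31.4 against 442 CPM. Tmem132c (-3.01 and -2.85), Nnat (-2.73 and -2.73), Ttc8 (-3.11 and -2.18), Col5a1 (-2.41 and -2.35) and Cd40 (-2.39 and -2.16) were lower as well. Against Kera-low cells, which by definition have little Kera, the ratios were 2.96 and 3.68 for Kera, 0.86 and 2.41 for Fgf21 and 0.60 and 3.13 for Cd40. Angptl7, Nnat and Col5a1 were lower than in Kera-low cells too (-1.10 and -1.07, -1.16 and -1.70, -0.44 and -0.45). Clec3b, the gene of tetranectin, set Chil1-high cells apart from Kera-low cells, with 4.05 against 352 CPM in the heterozygote and 23.5 against 964 CPM in the WT library, while Kera-high cells had 2.71 and 10.6 CPM.

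**Figure D2:**
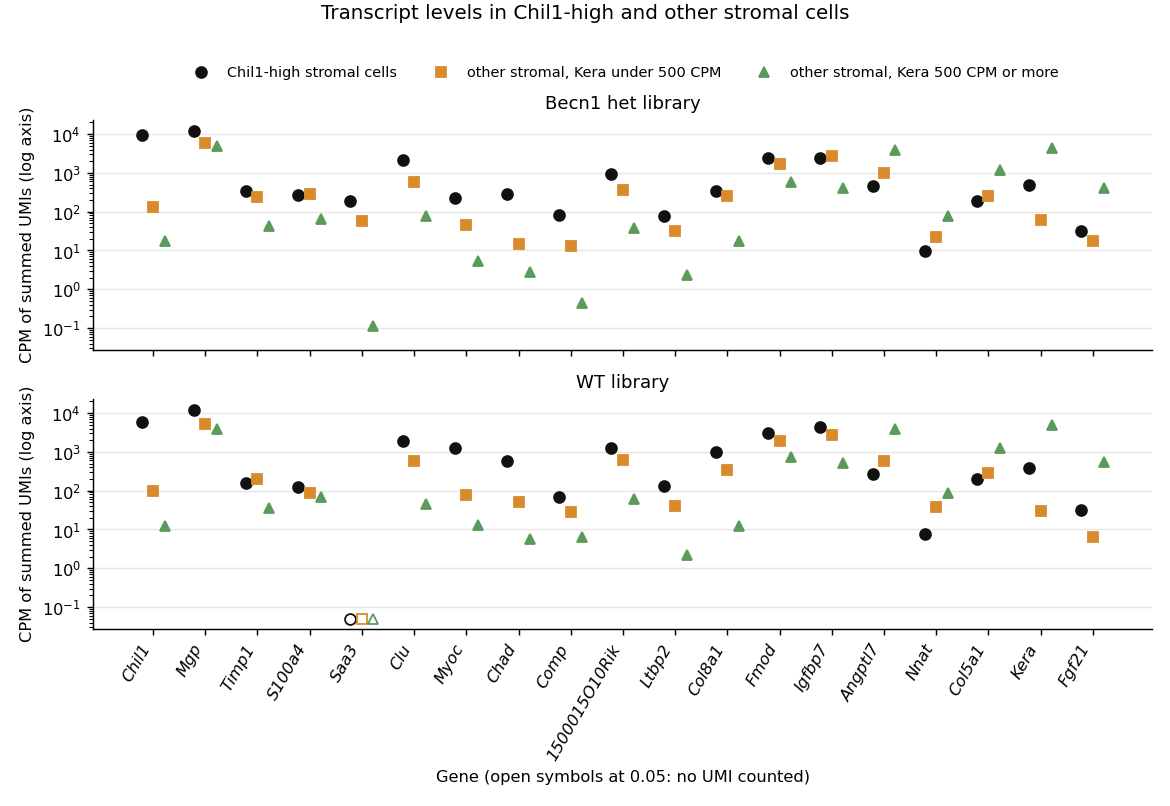
Levels (CPM of summed UMIs, log axis) of 19 genes in Chil1-high cells (black), other stromal cells with less than 500 CPM Kera (orange squares) and with 500 CPM or more (green triangles), in the heterozygote library (top) and the WT library (bottom). Chad, Myoc and Clu stand above both other sets in both libraries, Angptl7 and Nnat stand below both, and S100a4 and Timp1 lie near the Kera-low level.

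Of all measured genes 7.73% were higher and 3.84% lower in both libraries, and each list count is to be read against these shares. The lists were chosen with earlier results of these data known, so their counts are descriptions only. The list read first holds Mgp, a given marker. Of 8 measured genes of the list for inhibition of calcification and cartilage matrix, 7 were at least 1.5 times higher in both libraries and 0 were lower, with list medians of 2.04 in the heterozygote and 1.85 in the WT library. Besides Chad, Comp, Cilp2 and Mgp it held Ecrg4 (in the files as 1500015O10Rik), the gene of the secreted precursor augurin, at 913 against 105 CPM (3.12) and 1287 against 177 CPM (2.86). Of 14 measured collagen chains 7 were lower and 1, Col8a1, was higher in both, with medians of -1.16 and -0.82. The microfibrillar collagens Col6a2 (622 against 2357 CPM and 534 against 2623 CPM) and Col6a3 (483 against 1534 CPM and 416 against 1663 CPM) were examples, and Col1a1 had 9441 against 19767 CPM and 8993 against 22348 CPM. The fibrillar Col3a1 was lower in the heterozygote library (173 against 470 CPM) but not in the WT library (1130 against 987 CPM). Of 10 small leucine-rich proteoglycans 5 were higher and 1, Kera, was lower. Fmod, fibromodulin, had 2375 against 802 CPM and 3076 against 969 CPM, and Prelp had 675 against 244 CPM and 824 against 250 CPM, while the small proteoglycan gene Dcn had 29242 against 27616 CPM and 25182 against 26780 CPM. Kera-low cells had 1720 and 1911 CPM Fmod and 564 and 543 CPM Prelp, nearer to the Chil1-high values, with ratios of 0.47 and 0.69 for Fmod and 0.26 and 0.61 for Prelp. The ratios against them were 1.32 and 1.04 for Ecrg4 and 1.15 and 0.51 for Cilp2.

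Among other extracellular groups, 4 of 7 genes of the IGF and BMP binding list were higher and 1 was lower, among them Igfbp7 (1.49 and 2.15) and Igfbp6 (1.40 and 1.83), carriers of insulin-like growth factors, but neither was higher than in Kera-low heterozygote cells (-0.13 and -0.72). Of 3 metalloproteinase inhibitors 2 were higher, Timp1 and Timp3 (541 against 141 CPM and 1208 against 175 CPM), with ratios of 0.22 and 1.18 for Timp3 against Kera-low cells, and 0 of 6 metalloproteinases passed in either direction. In the elastic fibre list of 15 genes 2 were higher, Ltbp2 and Fbln1 (2.00 and 2.28), and 2 were lower, among them Mfap4 (-1.38 and -0.71). Of 15 matricellular and adhesion genes 4 were higher, such as Icam1 (1.73 and 2.90) and Ctgf (1.44 and 2.13), and 2 lower, such as Sparcl1 (-1.20 and -2.98). Against Kera-low cells the ratios were 1.48 and 0.049 for Sparcl1, -0.13 and 0.27 for Fbln1, 0.24 and 1.26 for Icam1 and 0.47 and 1.26 for Ctgf. Of 5 Wnt ligands and inhibitors 3 were higher and 2 lower; the secreted inhibitor Wif1 had 44.6 against 8.72 CPM and 39.2 against 9.28 CPM, and Kera-low cells had 6.16 and 6.29 CPM.

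Contractile and immediate early genes that passed 1.5-fold in both libraries were all higher. Of 11 actin and contractile genes 5 were higher and 0 lower, including the actin-binding Tpm1 (1.81 and 2.55) and Tagln (3.03 and 3.15). Tagln was counted in 7 heterozygote and 2 WT cells. The summed smooth muscle and pericyte markers given above were also higher over the Chil1-high cells, but that list holds Tagln too, so the results are not separate. The part of those markers in this result was not tested. Of 22 immediate early genes, which respond to tissue digestion among other stimuli, 7 were higher and 0 lower, among them Jun (1123 against 612 CPM and 1789 against 776 CPM) and Ier3 (1227 against 598 CPM and 1303 against 775 CPM). Of 14 genes of the ATF4 stress response 0 were higher and 6 lower, including Psat1, an enzyme of serine synthesis (-1.88 and -2.32), and Chac1 (-1.06 and -3.33). Psat1 was not lower than in Kera-low cells. In the heterozygote library the immediate early median was 0.45 against all other stromal cells but -0.020 against Kera-low cells. The ATF4 median was -0.48 and 0.13 in the same order. In the WT library these medians kept their sign in every setting tried, at least 0.24 for immediate early and at most -0.079 for ATF4 genes. In the acute phase list 1 of 4 measured genes was higher, the complement protease C1ra (1.61 and 1.39), and in the chemokine list 4 of 8, among them Csf1, a growth factor of macrophages (87.8 against 31.3 CPM in the heterozygote library). Of 13 transcription factors 3 were higher and 1 lower.

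Beclin 1 helps to start autophagy, the digestion of a cell's own parts. Of 17 measured autophagy genes 0 passed 1.5-fold in both libraries in either direction, where 7.73% of all genes were higher and 3.84% lower, with medians of 0.20 and 0.08. The autophagosome protein gene Map1lc3b had 609 against 450 CPM and 659 against 442 CPM, and the receptor Sqstm1 had 359 against 248 CPM and 408 against 242 CPM. Becn1 itself was counted in 10 of 87 heterozygote and 2 of 11 WT cells. Its level was 17.6 CPM in the heterozygote and 23.5 CPM in the WT cells, a log2 ratio of -0.59 (-2.29 to 2.03), which is too wide to show a direction, and reads from either allele may be counted. Other stromal cells had 34.7 and 30.4 CPM.

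**Figure D3:**
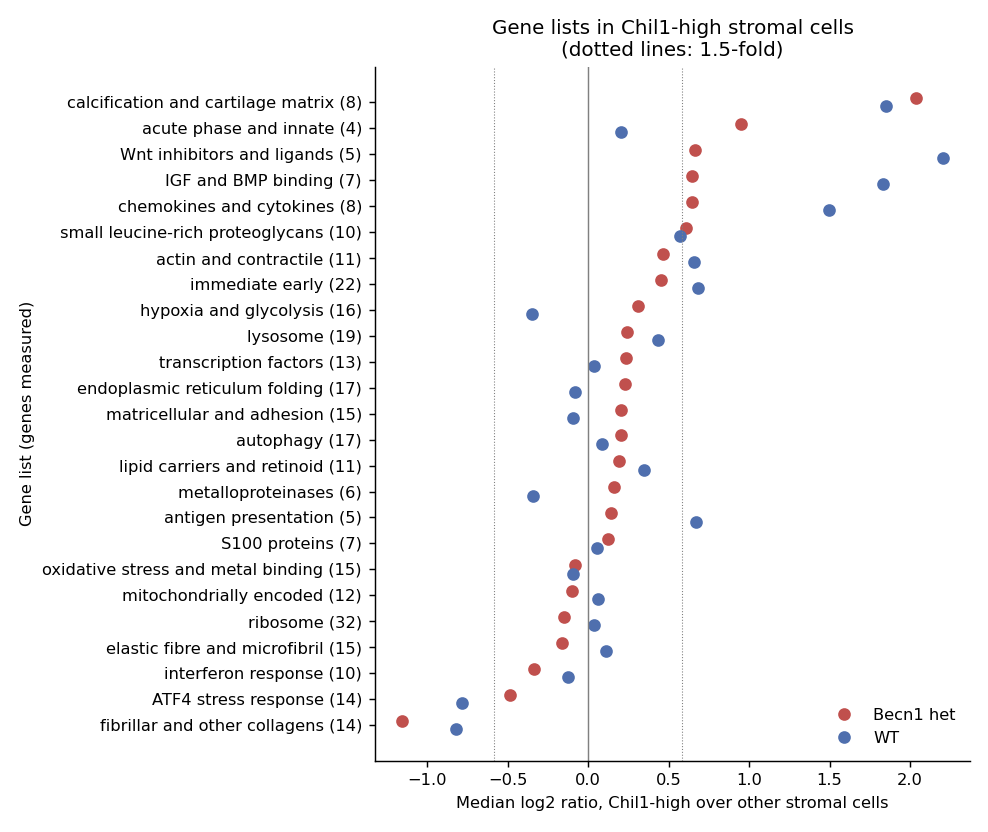
Median log2 ratio of Chil1-high over other stromal cells for gene lists with at least 4 measured genes (number in brackets), in the heterozygote (red) and WT library (blue), with dotted lines at 1.5-fold. The calcification and cartilage list had the highest heterozygote median (2.04) and the collagen list the lowest (-1.16). The lists were chosen with earlier results of these data known.

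The cells were not uniform. Among the most variable transcripts of the heterozygote cells after thinning to 5000 UMIs were, besides Chil1, Apoe, Mmp3, Fos, Igfbp2, Sparc, Mgp and Cst3, with variances between 25.7 and 34.6 times the mean. Read cell by cell, most cells fell under either of a pair of patterns, which were picked out after their values had been seen. In the first pattern Ecrg4, Chad, Penk (the enkephalin precursor) or Myoc was high. At least 1000 CPM of Ecrg4 or 500 CPM of any of the other 3 was reached by 32 of 87 heterozygote and 10 of 11 WT cells. Among other stromal cells it was reached by 108 of 1270 heterozygote and 70 of 558 WT cells. In the second pattern, Lcn2, an iron-binding antibacterial lipocalin, or Saa3 was present. A UMI of either was found in 35 of 87 heterozygote and 0 of 11 WT cells, and a count of 0 in 11 allows up to 27.3% of cells with a UMI, at a limit of 3 counts. The patterns met in 7 heterozygote cells. Among the 42 heterozygote cells of at least 8089 UMIs, 7 met the first pattern and 20 the second.

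In the heterozygote library the 17 cells with at least 1000 CPM Ecrg4 were compared with the other 70. Igfbp6 had 3608 against 169 CPM, Chad 1347 against 72.5 CPM, Comp 424 against 16.1 CPM and Penk 1746 against 177 CPM. Cilp2 (466 against 45.1 CPM), Omd, the gene of osteomodulin (366 against 35.5 CPM), Sfrp2, a secreted Wnt modulator (740 against 91.9 CPM), and Tnmd, the gene of the tendon protein tenomodulin (1455 against 213 CPM), went the same way. Cst3, the gene of cystatin C, was counted in all of these cells, at 7058 against 1290 CPM. The cartilage collagen Col9a1 went the other way, with 0 against 135 CPM. These same 17 cells had no Kera and no Saa3 UMI, while the other 70 had 579 CPM Kera and 226 CPM Saa3. Aqp1 (308 against 2163 CPM), Npy (33.3 against 667 CPM) and Lcn2 (16.6 against 206 CPM) were low in them as well. Their depth was lower, at a median of 6462 against 8310 UMIs.

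In the WT library 8 of the 11 cells reached 1000 CPM Ecrg4. Those 8 cells had 1740 CPM Igfbp6, 635 CPM Chad, 2430 CPM Penk and 963 CPM Tnmd. The 17 heterozygote cells had 3608, 1347, 1746 and 1455 CPM in the same order of genes. The other 3 WT cells include the cell with 43991 CPM of summed macrophage and dendritic cell markers. They had 166, 472, 1026 and 194 CPM, so Chad differed little within the WT library. Comp (76.6 against 55.5 CPM) and Igfbp5 (1740 against 1220 CPM) differed little there too. Chad and Penk both reached 500 CPM in 0 of 11 WT cells. Among these 8 WT cells a single cell carried Kera, so the absence of Kera from Ecrg4-high cells held in the heterozygote library only. As a share of stromal cells, Chil1-high cells with at least 1000 CPM Ecrg4 were 1.25% (0.731 to 2.00) in the heterozygote and 1.41% (0.609 to 2.75) in the WT library. Above 8089 UMIs in both they were 3 of 714 and 8 of 569. Chil1-high cells with less than 1000 CPM Ecrg4 were 5.16% (4.04 to 6.47) of stromal cells in the heterozygote and 0.527% (0.109 to 1.53) in the WT library. The WT share is those same 3 cells, the macrophage-marker cell among them.

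The cells with Lcn2 or Saa3 were set against the other heterozygote cells gene by gene. The 35 cells with Lcn2 or Saa3 had 479 CPM Csf3, a neutrophil growth factor, against 102 CPM in the other 52. S100a4 had 473 against 121 CPM, Serpina3n 378 against 116 CPM, the transcription factor Snai1 244 against 70.3 CPM and Timp1 515 against 211 CPM. Chad (12.2 against 492 CPM), Sfrp2 (6.10 against 349 CPM) and Col3a1 (30.5 against 286 CPM) were low in them. Also low were the chemokine gene Cxcl2 (3.05 against 162 CPM), Irf1, an interferon-response factor (0 against 99.3 CPM), Spp1 (12.2 against 201 CPM) and Lbp (15.2 against 109 CPM). Lcn2 and Saa3 were less common in other stromal cells, where 36 of 1270 in the heterozygote and 3 of 558 in the WT library had a UMI of either. Lcn2 alone was counted in 35.6% of heterozygote Chil1-high cells, in 2.44% of other stromal cells and in 5.74% of the epithelial cells, which are deeper (31.0%, 1.73% and 2.66% after thinning). Lcn2 is also a neutrophil marker, and of 10 neutrophil markers 4 had no UMI in the heterozygote cells and 10 had none in the WT cells. Their part in the result was not tested.

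**Figure D4:**
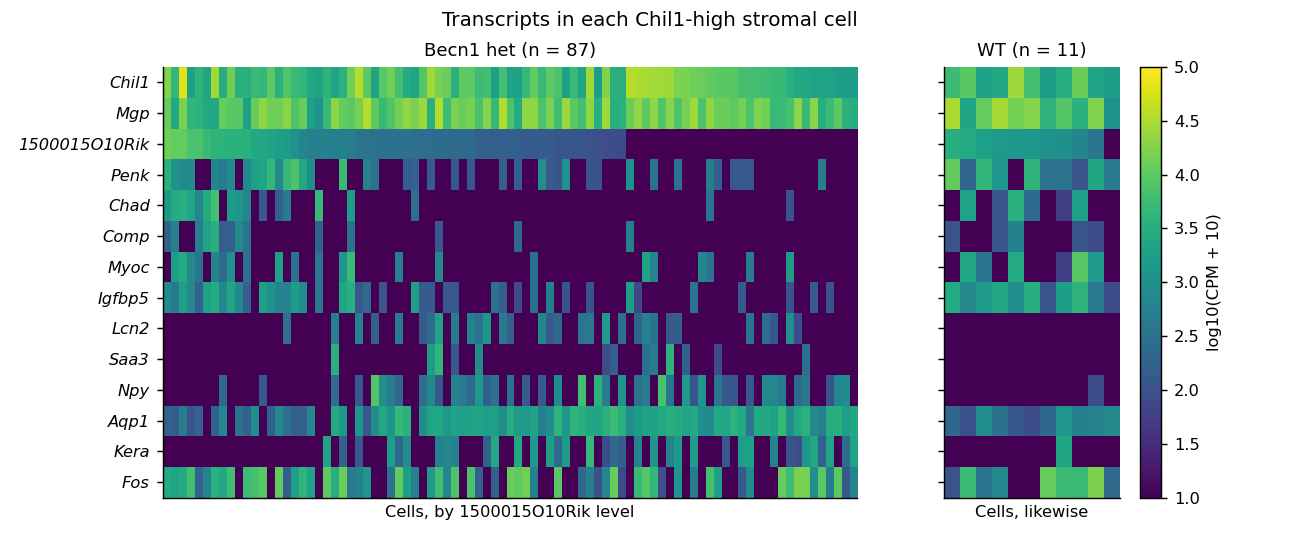
Each column is a Chil1-high cell, 87 of the heterozygote (left) and 11 of the WT library (right), ordered by Ecrg4 (1500015O10Rik) level, and colour gives log10(CPM + 10) of each gene. Cells at the left end of the heterozygote panel carry Ecrg4 with Penk, Chad, Comp and Igfbp5. Lcn2, Saa3, Npy and Kera lie mostly in the other cells of that library. In the WT panel Chad, Comp and Igfbp5 are found in cells low in Ecrg4 as well.

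Kera and Fos cut across the cells in other ways. Kera reached 500 CPM in 23 of 87 heterozygote (26.4%) and 1 of 11 WT cells (9.09%). Chad was found in 0 of those 23 cells and in 18 of the other 64. Fos reached 500 CPM in 51 of 87 heterozygote (58.6%) and 6 of 11 WT cells (54.5%), and Npy had 161 CPM in the 51 cells against 1140 CPM in the other 36.

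Between the genotypes, within Chil1-high cells, 859 of 4865 genes of at least 20 CPM (17.7%) were at least 1.5 times higher in the heterozygote and 1159 (23.8%) at least 1.5 times lower, so counts of named genes must be read against these large shares. Npy, the gene of neuropeptide Y, led the higher genes with 564 CPM in the heterozygote and 7.85 CPM in the WT cells, found in 44 of 87 and 1 of 11 cells (log2 ratio 5.58, 3.68 to 11.48). Ndufa4l2, a mitochondrial protein gene induced by low oxygen, had 664 against 70.6 CPM (3.16, 2.30 to 4.37), and Aqp1, a water channel, 1862 against 526 CPM (1.81, 1.47 to 2.20). The interferon-induced Ifitm1 (2.95), the retinol and alcohol dehydrogenases Adh7 (2.67) and Adh1 (2.15), the sterol enzyme Cyp51 (2.76), the metalloreductase Steap4 (2.48), Pantr1 (2.22) and Cda (2.09) followed. Lcn2 (176 CPM), Slpi, a protease inhibitor (166 CPM), and Saa3 (189 CPM) had no UMI in the WT cells. Against a floor of 3 UMIs in the WT sum they were higher by log2 ratios of at least 2.90, 2.82 and 3.01.

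Most of the lowest ratios came from a single WT cell. It had 43991 CPM of summed macrophage and dendritic cell markers, against 114 CPM in the next WT cell and at most 2277 CPM in a heterozygote cell, and it was not among the called doublets. All 342 WT UMIs of Cd74, the invariant chain of antigen presentation, lay in it. Cd74, H2-Aa, H2-Ab1, H2-Eb1, Cd14, C1qb and Ccl5 were 7 of the 10 lowest genes. Those with heterozygote UMIs had log2 ratios from -8.84 (H2-Aa) to -5.25 (C1qb). H2-Eb1 and Ccl5 had none, which against a floor of 3 UMIs gives ratios of at most -7.33 and -6.57. Without that cell the WT library had no UMI of Cd74 or C1qb, and the heterozygote had 7 and 6, so no direction can be given for either. The other 3 were Postn (47.3 against 471 CPM), the matrix protein periostin, Cxcl12 (13.5 against 275 CPM), a chemokine, and C3 (6.75 against 196 CPM, in 2 WT cells). Outside the macrophage-marker cell, Cxcl12 was counted in only 2 of 10 WT cells, with a highest cell of 2614 CPM.

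Without that cell the 10 lowest genes included Myoc and Penk, both named for the first pattern. Postn had 47.3 CPM in the heterozygote and 490 CPM in 10 WT cells (-3.37, -4.03 to -2.74), and was counted in 16 of 87 and 9 of 10 cells. Col3a1, a fibrillar collagen, had 173 against 1164 CPM (-2.75, -3.11 to -2.39), in 34 and 10 cells. Ooep (28.4 against 289 CPM) and Gem, the gene of an intracellular GTPase (58.1 against 429 CPM), were also among them. Myoc had 225 against 1400 CPM (-2.63), Igfbp5 325 against 1767 CPM (-2.44) and Penk 432 against 2214 CPM (-2.36). Elastin (Eln) had 44.6 against 350 CPM (-2.97), and in other stromal cells, too, it had 57.1 against 316 CPM. The shares of the patterns differ between the libraries, so the same genes were read within cells of at least 1000 CPM Ecrg4, 17 heterozygote and 8 WT. There the ratio was -0.07 (-0.60 to 0.47) for Myoc, -0.48 (-0.76 to -0.20) for Penk, -0.68 (-1.02 to -0.33) for Igfbp5 and -0.21 for Eln. It was -2.89 (-4.16 to -1.92) for Postn and -1.65 (-2.15 to -1.18) for Col3a1. Among the higher genes it was -0.64 (-1.32 to 0.02) for Aqp1 and 0.26 for Adh7, and 1.89 (0.91 to 3.17) for Ndufa4l2 and 3.30 (1.20 to 9.23) for Ifitm1. Cyp2f2 and Mmp3, at 1.58 and 1.91 over all Chil1-high cells without the macrophage-marker cell, turned in Ecrg4-high cells. There they had -0.81 (-1.55 to -0.09) and -0.49 (-1.29 to 0.30). In other stromal cells the ratio was 1.11 for Npy, 1.11 for Ifitm1, -0.06 for Ndufa4l2, 0.15 for Aqp1, -1.22 for Postn and -1.07 for Col3a1. For Myoc, a single WT cell with less than 1000 CPM Ecrg4 held 53.1% of the WT UMIs. The 8 Ecrg4-high WT cells had 602 CPM Myoc, so its pooled ratio rests largely on that cell. How far the mix of cells sets the pooled ratios was not tested.

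**Figure D5:**
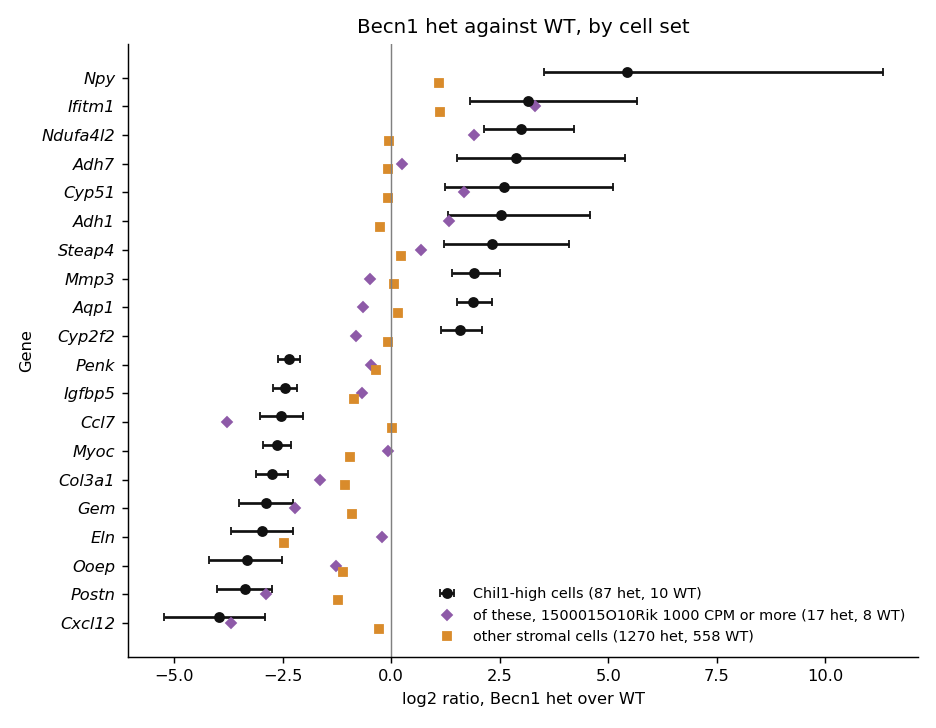
Log2 ratio of heterozygote over WT (x axis) for the 10 highest and 10 lowest genes without the WT cell high in macrophage markers, in all Chil1-high cells with 95% intervals (black), in those with at least 1000 CPM Ecrg4 (1500015O10Rik, purple) and in other stromal cells (orange). Myoc, Penk, Igfbp5, Eln, Aqp1 and Adh7 are nearer to 0 among Ecrg4-high cells than among all Chil1-high cells, while Postn, Cxcl12 and Ccl7 stay low and Ifitm1 and Ndufa4l2 high. Of the higher genes, Aqp1, Cyp2f2 and Mmp3 lie below 0 among Ecrg4-high cells. Of 10 WT cells 9 carried Postn, but only 3 carried Ccl7 (highest 6015 CPM) and 2 Cxcl12 (highest 2614 CPM). The WT levels of Ccl7 and Cxcl12 therefore rest on very few cells. Npy has no purple point, since no Ecrg4-high WT cell carried it. A single WT cell outside the Ecrg4-high set held 53.1% of the WT Myoc UMIs.

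Of the given markers, Mgp was level between the libraries within Chil1-high cells (-0.00, -0.08 to 0.07), and Timp1 (1.11, 0.48 to 1.87) and S100a4 (1.10, 0.41 to 1.97) were higher in the heterozygote. Chil1 had a ratio of 0.66 (0.43 to 0.97 over the settings tried), but the rule chose the cells by its level. A single cell held 29.6% of the WT Chil1 UMIs. Timp1 was counted in 51.7% of heterozygote and 45.5% of WT cells after thinning (57.5% and 90.9% without), and S100a4 in 49.4% and 45.5% (59.8% and 72.7% without). The epithelial cells had 5.07% and 5.21% for Timp1 and 4.09% and 5.39% for S100a4 after thinning. Of 17 measured autophagy genes 2 were higher and 3 lower, with a median of -0.12. Over all genes, 17.7% were higher and 23.8% lower.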

How the data were processed

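Single-cell transcript counts were deposited by the authors as raw UMI count matrices of genes by barcodes, made with Cell Ranger 2.1.1 on mm10 per the submitters' processing notes. All 7668 deposited barcodes were kept. The libraries held 74363359 UMIs in the heterozygote and 54913980 UMIs in WT (medians of 11571 and 16967 per barcode). They shared 15 barcodes. Members, gene lists and cell patterns were chosen with earlier results of these data known. UMIs were summed over cells, scaled to CPM and compared as log2 ratios with 0.5 added to each count, with exact conditional intervals. With 1 library per genotype no test was run. Genes needed a mean of 20 CPM.

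Some genes that meet the rule are not reported here. Named genes were the given markers, the 15 highest and 10 lowest ratios over other stromal cells (ranked by the ratio nearer 0 of both libraries, at least 50 CPM), the 10 highest and 10 lowest heterozygote over WT ratios (at least 100 CPM and 30 UMIs, ranked by the interval bound nearer 0), up to 4 genes per list and the 10 most variable genes. Scrublet in scanpy 1.11.5 called 213 heterozygote and 51 WT doublets, removed only as an alternative. TMM factors came from edgeR 4.0.16 (R 4.3.3). Other steps used Python 3.11.15, numpy 2.4.6, scipy 1.17.1 and pandas 2.3.3. The ratios were checked on simulated data. Other Chil1, Krt12 and gene limits, scalings and stromal sets were tried as alternatives. Gene positions came from the GENCODE annotation of mm10.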

Additional observations from a re-analysis of the deposited data

How the results depend on the processing

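The share of Chil1-high cells moved with the limits in both libraries: at 750 CPM Chil1 it was 2.095% of barcodes and 7.96% of stromal cells in the heterozygote and 3.34% of stromal cells in WT, at 3000 CPM 1.26% and 4.79% in the heterozygote and 1.05% of stromal cells in WT, at 1000 CPM Krt12 0.795% of barcodes in the heterozygote, and at the WT minimum depth 1.03%. The count of genes higher in both libraries was 79 with a floor of 100 CPM (54 lower), 1402 with no floor, 201 with TMM scaling (262 lower) and 134 against Kera-low cells. Between genotypes, a floor of 100 CPM gave 177 higher and 197 lower genes, and no floor gave 3344 lower. Lists with a median 1.5 times higher in both numbered 3 at 1000 CPM Krt12, at the WT minimum depth, with a floor of 100 CPM and with TMM, and 2 against Kera-low cells. Lists 1.5 times lower numbered 0 at 750 CPM Chil1 and with no floor, and 2 at 1000 CPM Krt12, without doublets, with TMM and against Kera-high cells. Of members, 47.1% in the heterozygote reached 1000 CPM Fos, and Timp1 was found in 90.9% of WT members without thinning.

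Signs turned for these genes. Between genotypes, Becn1 was 0.11 at 750 CPM Chil1 and 0.40 without the deepest cell of each library. C1qb was 0.55 and Cd74 1.00 at 3000 CPM Chil1; at 1000 CPM Krt12 C1qb was 1.26, Cd14 0.97 and Cd74 0.61; without the WT cell high in macrophage markers C1qb was 1.00 and Cd74 1.21, where WT had no UMI of either, so these values rest on the added 0.5. Against Kera-high cells Clec3b was 0.77 in the heterozygote and 1.36 in WT. Against Kera-low cells, heterozygote then WT, Cd40 was 0.60 and 3.13, Fgf21 0.86 and 2.41, Igfbp6 -0.72 and -0.069, Kera 2.96 and 3.68, Psat1 0.14 and 0.94 and Sparcl1 1.48 and 0.049. There Fbln1 was -0.13, Igfbp7 -0.13 and S100a4 -0.0054 in the heterozygote, and Timp1 -0.28 and Ttc8 1.06 in WT. The cause was not tested. Of the other values of genes and lists, 1699 stayed within their counting interval (for lists, the interquartile range over genes) and 380 did not. Among both, 22 changed sign, each from a value within 1.5-fold, such as, in the heterozygote against Kera-low cells, the medians of the ATF4 list (0.13) and the immediate early list (-0.020). The WT minimum depth and the macrophage marker limit were chosen after seeing the data. No paired analysis was possible because each genotype had 1 library. WT values rest on 127431 UMIs of 11 cells.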

Other observations

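Genes of the hypoxia and glycolysis list were mostly higher in heterozygote than in WT Chil1-high cells, with 11 of 17 measured genes at least 1.5 times higher, 3 lower and a median log2 ratio of 0.73. Over all genes, 17.7% were higher and 23.8% lower. The WT side is 11 cells, and how far the mix of cells sets this count was not tested. Against other stromal cells 0 of 16 genes of that list passed in both libraries, where 7.73% of all genes were higher and 3.84% lower. Its medians were 0.31 in the heterozygote and -0.35 in the WT library. Of 32 ribosomal protein genes and of 12 mitochondrially encoded genes 0 passed against other stromal cells in both libraries, and of 19 lysosomal genes 1 was higher and 0 lower.

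Another 11 heterozygote and 0 WT barcodes reached 1500 CPM Chil1 with 5000 CPM Krt12 or more and so fell outside the rule. They had medians of 3117 CPM Chil1, 11296 CPM Krt12, 11695 CPM Dcn, 3537 CPM Mgp and 3351 CPM Krt5 (a basal keratin) at a median of 17529 UMIs, and 9 of the 11 were called as doublets. Cxcl10, the second most variable gene of the heterozygote Chil1-high cells, had 97.5% of its UMIs in a single cell.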
